A study of Homo sapiens with 12 samples.

Results

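OLFML2B, NR2F2, DDAH1, TP53INP2 and RNF182 are 5 protein-coding genes whose RNA level differed in its response to NUF2 knockdown in the renal carcinoma cell lines 769-P and ACHN. They were chosen by that difference, that is, by their FPKM (fragments per kilobase of exon, scaled to the mapped fragments of the library, a level corrected for gene length and depth) with siNUF2 against siControl in each line and by the interaction of siRNA and line, and none of them is an interferon gene. They are 5 of the 58302 genes listed for each library, of which 36305 were above 0 in at least 1 library. All 5 passed the filter on low values (at least 0.5 FPKM in at least 3 libraries) in every comparison. Since the choice used these contrasts and stated no threshold, the responses to siNUF2 are given as a description. The fits across all genes include the 5. How many of them were called is stated beside the share of all genes, but no test of these contrasts supports anything here. The level of a gene averaged over both siRNAs, which the choice did not use, is the measure compared between the lines by a test.

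The 12 libraries fell into 4 groups of 3: 769-P with siNUF2, 769-P with siControl, ACHN with siNUF2 and ACHN with siControl, all taken 48 h after transfection. siNUF2 was a mixture of 2 siRNAs against NUF2, which encodes a subunit of the kinetochore complex that binds spindle microtubules, and siControl was a negative control siRNA. Both lines are labelled as clear cell renal cell carcinoma cells, each is a single established line, and the study grew them in different media (RPMI-1640 for 769-P and MEM for ACHN), so line and medium cannot be told apart. Replicates are numbered 1 to 3 in each group. The labels do not say whether they came from separate cultures, so p-values measure the spread between these libraries, which may be technical.

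Whole reads recovered from the FPKM numbered 29244021 to 38864845 per library. These totals are approximate. In ACHN siControl replicate 1 the total was 33812788 against 31389918 fragments implied by the FPKM scale, and in replicate 2 it was 37295124 against 38542647. NUF2 itself stood at 4.17, 3.86 and 3.01 FPKM with siNUF2 and 19.4, 17.8 and 17.8 FPKM with siControl in 769-P, and at 2.16, 5.14 and 4.25 FPKM against 11.6, 15.0 and 14.8 FPKM in ACHN, so the groups did not overlap in either line and the siNUF2 mean was 20.1% and 27.9% of the siControl mean. Of 14 renal epithelial markers, 10 in 769-P and 9 in ACHN reached 0.5 FPKM in a library (summed level 358 to 445 and 706 to 943 FPKM), with AQP1 and CA9 below it in both lines. Of 10 markers of other cell types, 0 reached it in 769-P and 2 (COL1A1 and PDGFRB) in ACHN, with summed levels of 0.336 to 0.66 and 1.43 to 6.22 FPKM. In such bulk RNA, fewer cells of one kind and less RNA per cell cannot be told apart.

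The 5 genes have unrelated products. OLFML2B encodes a secreted glycoprotein with an olfactomedin domain. NR2F2 encodes COUP-TFII, an orphan nuclear receptor known for its part in the development of veins, atria and mesenchyme, the kidney included. DDAH1 encodes an enzyme, abundant in kidney, that breaks down asymmetric dimethylarginine, an inhibitor of nitric oxide synthases that is released when proteins methylated on arginine are degraded. TP53INP2 encodes a protein that shuttles between nucleus and cytoplasm, binds LC3 and GABARAP family proteins and helps autophagosomes to form. RNF182 encodes a membrane-bound RING-type E3 ubiquitin ligase, whose described substrates include the proton pump subunit ATP6V0C and the NF-kappa-B subunit RELA.

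In GENCODE release 29 (GRCh38), OLFML2B (ENSG00000162745) lies at chr1:161983192-162023854 on the minus strand with 3415 exon bases, NR2F2 (ENSG00000185551) at chr15:96325938-96340263 on the plus strand with 6459, DDAH1 (ENSG00000153904) at chr1:85318481-85578363 on the minus strand with 4568, TP53INP2 (ENSG00000078804) at chr20:34704290-34713439 on the plus strand with 4228, and RNF182 (ENSG00000180537) at chr6:13924446-13980302 on the plus strand with 4090. TP53INP2 lies within the span of NCOA6 on the opposite strand but shares 0 exon bases with it, and OLFML2B and RNF182 also share 0 exon bases with any other gene. NR2F2 shares 47 exon bases with MIR1469 (0.728% of its own) and 0 with NR2F2-AS1, which runs antisense to it. DDAH1 shares 383 exon bases with the long noncoding RNA AC092807.3 (8.38%), so a part of its reads could be split between the 2 genes.

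The 250 bases before a RefSeq start (build GRCh38.p14) are shown for 3 of the genes, OLFML2B, which had the larger interaction of the 2 genes whose pairs went in opposite directions in the lines, and TP53INP2 and RNF182, which had the lowest and the highest difference in 769-P. Where RefSeq listed several starts, the one furthest upstream is shown. Capitals mark GC boxes (GGGCGG, read on both strands) and CCAAT boxes (CCAAT, read on both strands), which do not overlap each other.
OLFML2B, chr1:162023870-162024119, minus strand: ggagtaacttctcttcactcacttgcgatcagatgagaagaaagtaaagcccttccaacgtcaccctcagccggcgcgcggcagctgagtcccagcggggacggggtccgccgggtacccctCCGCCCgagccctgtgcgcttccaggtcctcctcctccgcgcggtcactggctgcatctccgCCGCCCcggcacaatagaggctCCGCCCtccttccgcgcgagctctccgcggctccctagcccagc
TP53INP2, chr20:34704094-34704343, plus strand: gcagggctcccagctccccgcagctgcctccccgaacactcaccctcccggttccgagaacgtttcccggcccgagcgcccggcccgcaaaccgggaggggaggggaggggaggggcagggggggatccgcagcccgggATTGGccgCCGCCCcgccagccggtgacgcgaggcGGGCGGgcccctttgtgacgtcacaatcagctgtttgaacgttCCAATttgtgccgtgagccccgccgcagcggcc
RNF182, chr6:13924196-13924445, plus strand: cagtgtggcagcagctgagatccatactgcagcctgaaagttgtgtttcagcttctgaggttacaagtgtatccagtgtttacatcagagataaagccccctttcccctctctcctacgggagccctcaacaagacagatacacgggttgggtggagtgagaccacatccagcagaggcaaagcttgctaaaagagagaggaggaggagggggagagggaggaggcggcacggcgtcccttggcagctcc
The OLFML2B stretch held 3 GC boxes and 0 CCAAT boxes at 67.6% G and C, the TP53INP2 stretch held 2 of each at 72.8%, and the RNF182 stretch held 0 of either at 55.2%. Among 35116 RefSeq stretches of the same length, 42.6% held a GC box and 32% a CCAAT box, and the median was 58% G and C. RNF182 has 2 more starts further downstream, whose stretches each held 2 GC boxes at 69.2% and 78.8% G and C. TP53INP2 also has another start downstream, whose stretch held 3 GC boxes and 1 CCAAT box at 72% G and C. For both genes the FPKM do not tell which start was used. These letters are a description and no measure of binding.

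OLFML2B was lower with siNUF2 in 769-P and higher with it in ACHN. In 769-P it stood at 1.94, 4.2 and 3.03 FPKM with siNUF2 and at 3.12, 7.47 and 6.08 FPKM with siControl (replicates 1, 2 and 3), and in ACHN at 8.33, 5.02 and 7.82 FPKM against 5.15, 3.46 and 5.60 FPKM. Within each same-numbered pair the siNUF2 library was the lower one in 769-P and the higher one in ACHN, although the ranges of the 2 siRNAs overlapped in both lines. The siNUF2 mean was 55% of the siControl mean in 769-P (3.06 ± 1.13 against 5.56 ± 2.22 FPKM, SD, n = 3) and 149% in ACHN (7.06 ± 1.78 against 4.74 ± 1.13 FPKM).

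NR2F2 had the highest FPKM of the 5 genes in 769-P and was lower there with siNUF2. It stood at 19.6, 32.0 and 19.7 FPKM with siNUF2 against 33.6, 50 and 33.9 FPKM with siControl in 769-P, where the groups did not overlap, and at 11.1, 14.9 and 8.47 FPKM against 9.26, 13.9 and 6.66 FPKM in ACHN, where they did. The siNUF2 mean was 60.6% of the siControl mean in 769-P (23.8 ± 7.11 against 39.2 ± 9.39 FPKM, SD, n = 3) and 116% in ACHN (11.5 ± 3.25 against 9.94 ± 3.67 FPKM). All 3 pairs were lower with siNUF2 in 769-P and all 3 were higher in ACHN, where the log2 differences of the pairs were 0.27, 0.11 and 0.36. Without the third siControl library of ACHN, the unpaired difference in ACHN was -0.01.

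DDAH1 was lower with siNUF2 in both lines and by more in 769-P. In 769-P the siNUF2 libraries were close together at 7.39, 7.20 and 7.60 FPKM and the siControl libraries at 15.1, 16.1 and 17.1 FPKM, so the groups did not overlap and the siNUF2 mean was 46% of the siControl mean (7.4 ± 0.2 against 16.1 ± 0.952 FPKM, SD, n = 3). In ACHN the same gene spread over 7.57, 12.8 and 9.58 FPKM with siNUF2 and 9.26, 17.1 and 12.8 FPKM with siControl, so the groups overlapped although every pair was lower with siNUF2, and the siNUF2 mean was 76.5% of the siControl mean (9.98 ± 2.64 against 13 ± 3.93 FPKM).

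TP53INP2 had the lowest ratio of siNUF2 to siControl of the 5 in 769-P. It stood at 1.29, 3.24 and 2.94 FPKM with siNUF2 against 4.06, 10 and 10.5 FPKM with siControl in 769-P and at 4.35, 2.94 and 3.72 FPKM against 6.70, 3.46 and 4.73 FPKM in ACHN. The groups did not overlap in 769-P, where replicate 1 was the lowest library with either siRNA, and they overlapped in ACHN. The siNUF2 mean was 30.4% of the siControl mean in 769-P (2.49 ± 1.05 against 8.19 ± 3.59 FPKM, SD, n = 3) and 73.9% in ACHN (3.67 ± 0.706 against 4.96 ± 1.63 FPKM), and all 3 pairs were lower with siNUF2 in each line.

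RNF182 was the only one of the 5 that was higher with siNUF2 in 769-P. It stood at 6.62, 3.65 and 4.69 FPKM with siNUF2 against 2.03, 1.27 and 1.12 FPKM with siControl in 769-P, where the groups did not overlap, and at 6.85, 8.47 and 7.44 FPKM against 6.17, 7.1 and 7 FPKM in ACHN, where they did. The siNUF2 mean was 339% of the siControl mean in 769-P (4.98 ± 1.51 against 1.47 ± 0.486 FPKM, SD, n = 3) and 112% in ACHN (7.59 ± 0.819 against 6.76 ± 0.51 FPKM). Its level in 769-P with siNUF2 thus overlapped that of ACHN with siControl, while its level in 769-P with siControl lay below every other library.

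**Figure D1:**
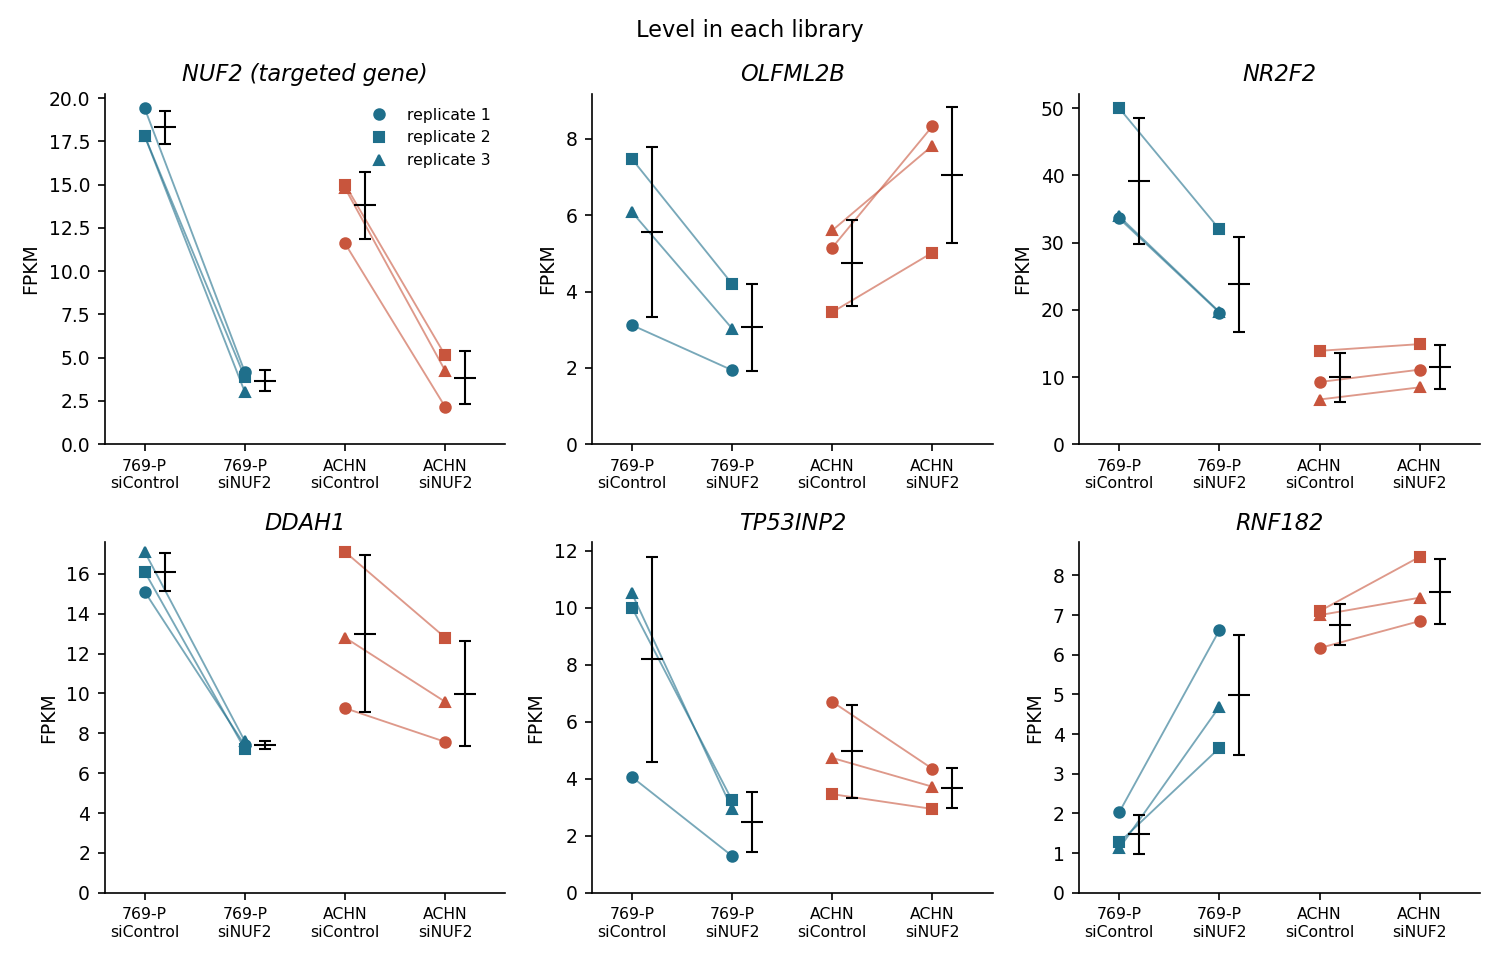
FPKM (y axis, linear from 0) of NUF2 and of the 5 genes in each of the 12 libraries, by line and siRNA, with lines joining libraries of the same replicate number and black bars giving mean and SD of 3 libraries. The lines run down in 769-P for OLFML2B, NR2F2, DDAH1 and TP53INP2 and up for RNF182, and in ACHN they run up for OLFML2B and less so for NR2F2 and RNF182.

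On the log2(FPKM + 0.1) scale, the differences within the 3 pairs of a line lay close together for every gene. In 769-P they were -0.65, -0.80 and -0.97 for OLFML2B (mean -0.81), -0.77, -0.63 and -0.77 for NR2F2 (mean -0.72) and -1.02, -1.13 and -1.14 for DDAH1 (mean -1.10). They were -1.58, -1.58 and -1.79 for TP53INP2 (mean -1.65) and 1.66, 1.46 and 1.99 for RNF182 (mean 1.71). In ACHN the means of the pair differences were 0.57 for OLFML2B, 0.25 for NR2F2, -0.36 for DDAH1, -0.38 for TP53INP2 and 0.17 for RNF182, so each was smaller in size than in 769-P. For none of the 5 genes did the pair differences of 1 line overlap those of the other. The genes were chosen for a response that differed between the lines, and the share of all genes with such pairs was not counted.

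The interaction, the log2 difference in 769-P less that in ACHN, was 1.53 for RNF182, -1.38 for OLFML2B, -1.27 for TP53INP2, -0.97 for NR2F2 and -0.74 for DDAH1. Ranked by size among 16580 genes tested, these were 261st, 321st, 380th, 671st and 1168th. The standard errors were 0.331, 0.509, 0.593, 0.43 and 0.304 in the same order without the pairing and 0.141, 0.106, 0.124, 0.0799 and 0.0647 with the replicate number as a block. Reads behind the values numbered 148 to 1199 per library for RNF182, 171 to 1440 for TP53INP2, 208 to 1040 for OLFML2B, 946 to 3012 for DDAH1 and 1514 to 10359 for NR2F2, which gives a counting error of at most 8.22%, 7.65%, 6.93%, 3.25% and 2.57% of the value. Counting error was thus smaller than the responses in 769-P, and it leaves out the variation between cultures and libraries.

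What the replicate number changed was the spread. In 769-P the SD of log2(FPKM + 0.1) between replicates was 0.69 with siNUF2 and 0.75 with siControl for TP53INP2, but 0.12 for the pair differences. For OLFML2B it was 0.54 and 0.63 against 0.16, and for NR2F2 0.40 and 0.32 against 0.08. DDAH1 differed between the lines, with SDs of 0.04 and 0.08 against 0.07 in 769-P and of 0.37 and 0.43 against 0.07 in ACHN. For RNF182 it was 0.43 and 0.43 against 0.27 in 769-P. For OLFML2B replicate 2 was the highest library of both siRNAs in 769-P and the lowest of both in ACHN. For NR2F2 it was the highest of both siRNAs in both lines, so whether a number marked a high library in both lines differed by gene.

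The calls of limma at an adjusted p under 0.05 followed that spread. In 769-P, 2 of the 5 genes (DDAH1 and RNF182) were called where 9.93% of all genes were called, and 5 of 5 with the replicate block, where 27.7% were. In ACHN, 0 of 5 were called where 0% of all genes were called (0 of 15111, with 1233 at an unadjusted p under 0.05), and 2 of 5 (OLFML2B and DDAH1) with the replicate block, where 11.6% were. The lowest limma adjusted p of any gene in ACHN without the block was 0.116. NUF2 itself, at 27.9% of the siControl mean, was thus not called there either, so a count of 0 does not show an absent response. For the interaction, 0 of 5 were called where 0% were called (0 of 16580, with 774 at an unadjusted p under 0.05), and 5 of 5 with the replicate block, where 1.33% were (221 genes). These contrasts chose the genes, so nothing is read from the counts.

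Averaged over both siRNAs, the level of 2 of the 5 genes differed between the lines, where 72.9% of all genes tested did (63.6% with the replicate block), so the count is no more than that of genes at large. NR2F2 was higher in 769-P, at 19.6 to 50 FPKM in its 6 libraries (31.5 ± 11.3, SD) against 6.66 to 14.9 FPKM in ACHN (10.7 ± 3.22), with no overlap. The log2 difference was 1.53 (SE 0.215, limma adjusted p = 6.83e-05, and 0.00261 with the replicate block), a 2.93-fold higher mean. The two-sided exact permutation test of 6 against 6 libraries gave p = 0.00216, the smallest it can give. It treats the 6 libraries of a line as exchangeable, although they hold both siRNAs and same-numbered libraries deviated together.

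RNF182 was the other one, and it was higher in ACHN. Its levels were 6.17 to 8.47 FPKM in ACHN (7.17 ± 0.761, SD, n = 6) and 1.12 to 6.62 FPKM in 769-P (3.23 ± 2.17, n = 6), which overlapped through 1 siNUF2 library of 769-P. The log2 difference of 769-P less ACHN was -1.39 (SE 0.166, limma adjusted p = 1.83e-05, and 0.00115 with the replicate block). The exact permutation test, with the same limits as for NR2F2, gave p = 0.00433. The mean in ACHN was 2.22-fold higher. With siControl alone it was 4.59-fold higher and with siNUF2 1.52-fold higher.

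The other 3 genes did not pass between the lines. The log2 difference of 769-P less ACHN was -0.52 for OLFML2B (95% interval -1.08 to 0.05, limma adjusted p = 0.0891, exact permutation p = 0.152), -0.02 for DDAH1 (-0.36 to 0.32, 0.916 and 0.911) and 0.02 for TP53INP2 (-0.64 to 0.67, 0.964 and 0.972). For DDAH1 and TP53INP2 the siRNA groups lay on either side of that average. The log2 difference of 769-P less ACHN was 0.35 and 0.65 with siControl, and -0.39 and -0.62 with siNUF2. For both genes the lines overlapped with either siRNA. For OLFML2B the lines were close with siControl (0.17, overlapping) and apart with siNUF2 (-1.21, not overlapping). Leaving out replicate 2 of 769-P siNUF2, of 769-P siControl or of ACHN siNUF2 brought the OLFML2B line difference to -0.63, -0.64 and -0.63 and its adjusted p to 0.0489, 0.0481 and 0.0497.

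**Figure D2:**
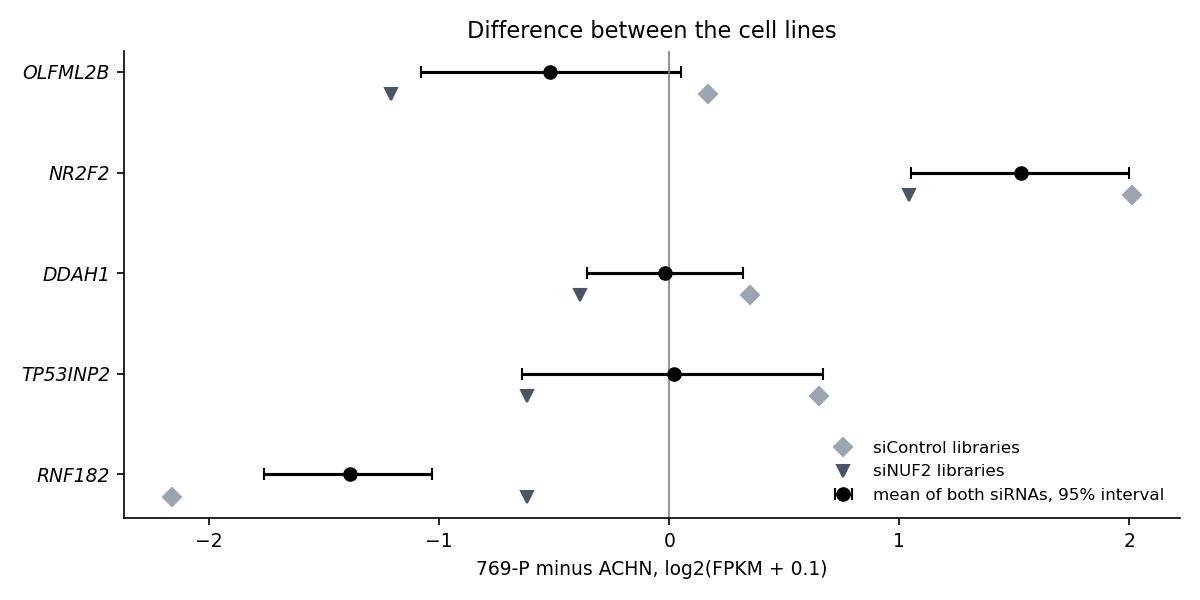
Log2(FPKM + 0.1) in 769-P minus ACHN (x axis) for the 5 genes, as the mean of both siRNAs with its 95% interval from limma (black) and for siControl (diamonds) and siNUF2 (triangles) alone. The interval excludes 0 for NR2F2 (1.05 to 2.00) and RNF182 (-1.76 to -1.03).

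The order of the 4 groups by mean FPKM differed from gene to gene. For NR2F2 it ran from 769-P siControl to 769-P siNUF2 to ACHN siNUF2 to ACHN siControl, with only the last 2 groups overlapping. For RNF182 it ran from ACHN siNUF2 to ACHN siControl to 769-P siNUF2 to 769-P siControl, with only the last step clear of overlap. For DDAH1 and TP53INP2 it ran from 769-P siControl to ACHN siControl to ACHN siNUF2 to 769-P siNUF2, and for OLFML2B from ACHN siNUF2 to 769-P siControl to ACHN siControl to 769-P siNUF2, and in these 3 genes each group overlapped the next.

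Among themselves the genes followed each other only in part. With the mean of each line taken off, the correlation over the 12 libraries was -0.943 between TP53INP2 and RNF182, 0.769 between OLFML2B and TP53INP2, -0.738 between DDAH1 and RNF182 and -0.716 between OLFML2B and RNF182. The lowest in size was 0.186, between OLFML2B and DDAH1. The points share libraries, pairs and the siRNA contrast that chose the genes, so the values are a description.

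By the same measure, the genes most like OLFML2B were CLSTN2 (r = 0.939), FAM8A1 (0.899) and IVNS1ABP (0.896), those most like NR2F2 were MIR3177 (0.934), ACTR3B (0.933) and ZIC2 (0.924), and those most like DDAH1 were LCORL (0.98), PTAR1 (0.968) and GSR (0.966). CLSTN2 stood at 0.149 FPKM with siNUF2 and 0.0848 FPKM with siControl in ACHN (means) and was not tested there. MIR3177 is a miRNA gene of 82 exon bases with 0 to 7 reads per library, so its likeness rests on a handful of reads. GSR, glutathione reductase, stood at 98.3 FPKM with siNUF2 and 160 FPKM with siControl in 769-P (means) and at 24.5 and 28.6 FPKM in ACHN, the same direction as DDAH1 in both lines.

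The genes most like TP53INP2 were B4GALT5 (0.975), ACVR1B (0.97) and NT5DC1 (0.967), which were 0.36 to 0.49 lower with siNUF2 in 769-P on the log2 scale, against 1.65 for TP53INP2. Those most like RNF182 were FGB (0.979), DOCK2 (0.959) and VSTM4 (0.957). FGB, which encodes the beta chain of fibrinogen, stood at 89.8 FPKM with siNUF2 and 44.2 FPKM with siControl in 769-P and at 0.0141 and 0.00669 FPKM in ACHN, near 0 in the latter. VSTM4 was also near 0 in ACHN (0.00559 and 0.001 FPKM), and neither FGB nor VSTM4 was tested there. DOCK2, an exchange factor for RAC GTPases, stood at 5.25 against 1.11 FPKM in 769-P and at 15.9 against 10.9 FPKM in ACHN, the pattern of levels that RNF182 also had.

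Genes related to each of the 5 by family or function were examined in the same comparisons. In the interaction, 0 of the 52 list genes tested were called by limma without or with the replicate block, where 0% and 1.33% of all genes were. The lowest limma adjusted p with the block was 0.0752, for ASL of the arginine genes. The olfactomedin list held 12 genes, of which 3 were tested (ADGRL1, ADGRL2 and OLFML2A) and 0 were called in either line, with a median log2 difference of 0.28 in 769-P and 0.11 in ACHN against -0.01 and 0.00 for all genes. OLFML2A, the closest paralog of OLFML2B, stood at 0.952 ± 0.0565 FPKM with siNUF2 and 0.753 ± 0.0692 with siControl in 769-P (SD, n = 3) and at 3.98 ± 0.599 and 3.7 ± 0.432 FPKM in ACHN. Its difference of 0.32 in 769-P did not pass (limma adjusted p = 0.26), and it was lower in 769-P than in ACHN by the line test (log2 difference -2.04, SE 0.0974, adjusted p = 1.26e-08). OLFM4 was listed at 0 in every library.

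Of 15 NR2 nuclear receptors and partners of COUP-TF proteins, 11 were tested in 769-P and 7 in ACHN. RXRB, a retinoid X receptor, was higher with siNUF2 in 769-P (15 ± 1.05 against 11.2 ± 0.714 FPKM, SD, n = 3, log2 difference 0.43, SE 0.0827, limma adjusted p = 0.0252), and 0 were called in ACHN with or without the block. With the replicate block, NR2F6 (-0.26), ZFPM1 (-0.32) and NR2F2-AS1 (-0.63) were also called lower in 769-P. Of all genes, 9.93% were called in 769-P without the block and 27.7% with it, and in ACHN 0% and 11.6%. The paralog NR2F1 stood at 2.2 ± 0.188 FPKM with siNUF2 and 2.67 ± 0.601 with siControl in 769-P and was below 0.1 FPKM in all 6 ACHN libraries (0.0152 to 0.0803 FPKM). Between the lines 7 of the 11 were higher in 769-P (NR2F1, NR2F6, NR2E3, HNF4G, RXRA, ZFPM2 and NR2F2-AS1) and 2 lower (NR2C1 and NR2C2), where 72.9% of all genes were called, and with the replicate block 7 were higher and 1 lower, where 63.6% were called, since NR2C2 was lost. The median log2 difference was 1.49 against -0.02 for all genes, and NR2F2-AS1 differed by 1.49 (SE 0.199, adjusted p = 4.48e-05), beside 1.53 for NR2F2. RXRG was listed at 0 in every library.

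Of 20 genes that make or degrade methylarginines and arginine or act in nitric oxide signalling, 11 were tested in 769-P and 12 in ACHN. In 769-P, 2 were higher and 1 lower with siNUF2, where 9.93% of all genes were called. PRMT6, which methylates arginine asymmetrically, rose from 10.1 ± 1.23 to 18.7 ± 0.883 FPKM (SD, n = 3, log2 difference 0.91, SE 0.0978, limma adjusted p = 0.00545), and NOSIP, which binds nitric oxide synthases, from 8.27 ± 1.2 to 11.5 ± 0.0299 FPKM (0.50, adjusted p = 0.0392). GUCY1A1, a subunit of the soluble guanylate cyclase that senses nitric oxide, fell from 6.07 ± 1.09 to 3.3 ± 0.408 FPKM (log2 difference -0.84, SE 0.149, adjusted p = 0.0201), and its partner subunit GUCY1B1 stood at 17.3 ± 4.37 FPKM with siControl and 10.1 ± 1.55 with siNUF2 (-0.73, adjusted p = 0.0635, and 0.0121 with the replicate block). With the block, where 27.7% of all genes were called, ASS1 (-0.29) was called as well.

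In ACHN 0 of the 12 were called without the block, where 0% of all genes were called. With it 3 were called higher (PRMT6 at 1.06, SLC7A2 at 0.56 and NOSIP at 0.33), where 11.6% of all genes were called. PRMT6 stood at 8.39 ± 0.433 FPKM with siNUF2 and 4.01 ± 0.553 with siControl there, and its interaction was -0.16 (adjusted p = 1, and 0.425 with the block). GUCY1A1 was below the filter on low values in ACHN and not tested there. It stood at 0.202 ± 0.0891 FPKM with siNUF2 and 0.405 ± 0.15 with siControl, overlapping. Its ACHN pairs differed by -0.76, -0.73 and -0.70, and its interaction of -0.11 was not called. DDAH2, the closest paralog of DDAH1, stood at 38.2 ± 6.9 FPKM with siNUF2 and 36.4 ± 6.25 with siControl in 769-P and at 19.1 ± 0.192 and 19.4 ± 0.571 FPKM in ACHN, log2 differences of 0.08 and -0.01 that did not pass (limma adjusted p = 0.798 and 0.998). DDAH2 was higher in 769-P by the line test (log2 difference 0.94, SE 0.102, adjusted p = 8.48e-06). PRMT8 was listed at 0 in every library.

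Of 24 autophagosome genes, 22 were tested in 769-P and 23 in ACHN, with median log2 differences of 0.06 and 0.05 against -0.01 and 0.00 for all genes. BECN1, a subunit of the kinase complex that starts autophagosome formation, was higher with siNUF2 in 769-P (8.02 ± 0.847 against 5.61 ± 0.454 FPKM, SD, n = 3, log2 difference 0.52, SE 0.104, limma adjusted p = 0.0281), and so was WIPI2, which recruits the LC3 conjugation enzymes (13.3 ± 1.49 against 9.34 ± 0.648 FPKM, 0.51, adjusted p = 0.0254). Of all genes, 9.93% were called in 769-P without the block. In ACHN 0 of the 23 were called without it. With it BECN1 (0.30, limma adjusted p = 0.042) and WIPI2 (0.52, limma adjusted p = 0.0141) were called higher there as well. Their interactions were 0.21 and -0.00 and were not called with or without the block. With the block the counts were 5 higher and 4 lower of 22 in 769-P, where 27.7% of all genes were called, and 3 higher and 2 lower of 23 in ACHN, where 11.6% were. GABARAPL1, which belongs to the family that TP53INP2 binds, was among the lower ones in both lines (-0.43 and -0.56).

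TP53INP1, the paralog of TP53INP2, was lower with siNUF2 in all 3 ACHN pairs, as TP53INP2 was, but did not share its course in 769-P. It stood at 5.48 ± 1.75 FPKM with siNUF2 and 5.86 ± 1.98 with siControl in 769-P (log2 difference -0.07, limma adjusted p = 0.903) and at 4.55 ± 1.11 and 7.04 ± 0.986 FPKM in ACHN (-0.63, adjusted p = 0.498, and 0.0304 with the replicate block). Its interaction of 0.55 did not pass (adjusted p = 1, and 0.102 with the block). Between the lines, 13 of the 23 autophagosome genes were lower in 769-P and 5 higher, where 72.9% of all genes were called, so the 18 called were near the share of genes at large. With the replicate block 12 were lower and 3 higher, where 63.6% were called, and the calls of GABARAP (adjusted p = 0.0624), ATG9A (0.0737) and ATG12 (0.168) were lost.

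The last list held RNF183, RNF186 and RNF152, ligases of the same family as RNF182, and the substrates ATP6V0C and RELA. Of its 5 genes only the 2 substrates were tested, and 0 were called in either line, with median log2 differences of -0.04 in 769-P and 0.07 in ACHN. RNF183 and RNF152 were at most 0.0446 and 0.021 FPKM in any library and RNF186 was listed at 0 in every one. RELA was lower in 769-P than in ACHN (log2 difference -0.22, SE 0.0789, limma adjusted p = 0.025), a call that held in 10 of 18 alternatives and was lost with the replicate block (adjusted p = 0.115) and without any of 7 single libraries.

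**Figure D3:**
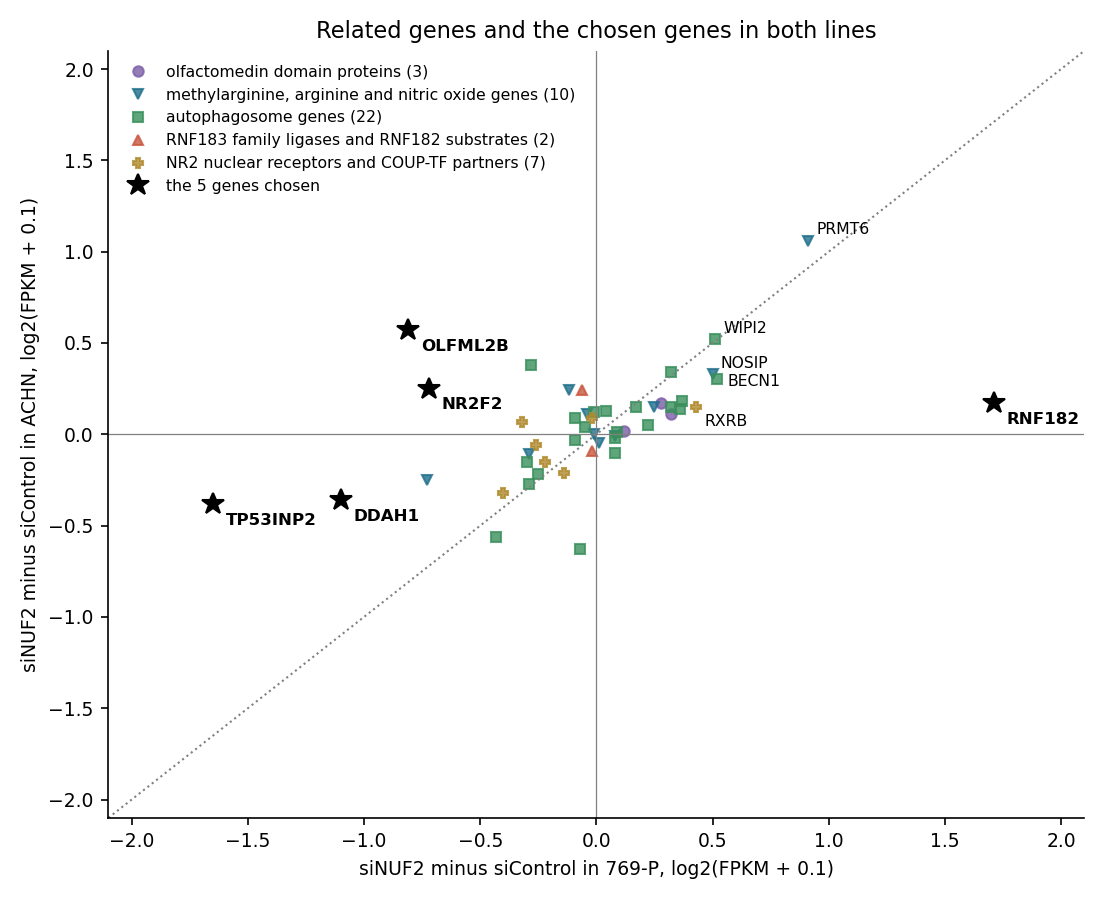
Log2 difference of siNUF2 less siControl in 769-P (x axis) and in ACHN (y axis) for the related genes tested in both lines, by list with the number plotted, and for the 5 genes chosen (stars), with a dotted line where both lines are equal. Named small symbols are genes called in 769-P, of which PRMT6 (0.91 and 1.06) lies near the line, while the 5 chosen genes lie off it, as the choice requires.

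Genes on either side of the 5 were looked at in the same fits. The tested neighbours of OLFML2B were ATF6 at 19.1 kb, which was higher with siNUF2 in 769-P (log2 difference 0.40, limma adjusted p = 0.0449) where OLFML2B was lower, and which was called in ACHN with the replicate block only (0.23, adjusted p = 0.0412), and C1orf226 at 343 kb (-0.04, adjusted p = 0.934). NR2F2 had AC103746.1 at 2.69 kb (-1.27, adjusted p = 0.0673, and 0.0123 with the replicate block) and AC012409.1 at 152 kb (0.11, adjusted p = 0.797), besides NR2F2-AS1 (-0.63, adjusted p = 0.166, and 0.0485 with the block). Without the second siNUF2 library of 769-P, AC103746.1 also passed, at -1.65, and NR2F2-AS1 passed with the block only.

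DDAH1 had BCL10 at 41.6 kb (-0.16, limma adjusted p = 0.55) and AC092807.2 at 0.137 kb (0.75, adjusted p = 0.381), and AC092807.3, with which it shares exon bases, was tested in ACHN only (0.08, adjusted p = 0.995). Around TP53INP2, PIGU at 5.5 kb was at 0.27 in 769-P (adjusted p = 0.0509, and 0.0151 with the block), GGT7 at 131 kb at -0.09 (adjusted p = 0.831) and NCOA6, which spans it, was lower (-0.49, adjusted p = 0.0235). In ACHN NCOA6 was called with the block only (-0.41, adjusted p = 0.0413). The counting strand is not given in the sources used here, and whether reads of NCOA6 entered the TP53INP2 values was not tested.

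Both neighbours of RNF182 were lower with siNUF2 in 769-P, where RNF182 was higher. MCUR1 at 110 kb (log2 difference -0.53, limma adjusted p = 0.0174) and CD83 at 137 kb (-1.15, adjusted p = 0.00776) passed there, and in ACHN their differences of -0.38 and -0.55 did not pass without the block (adjusted p = 0.451 and 0.88, and 0.038 and 0.0302 with it). In the interaction 0 of the 13 neighbouring and overlapping genes were called by limma without or with the block, where 0% and 1.33% of all genes were. CD83 came closest (-0.60, limma adjusted p = 0.0585 with the block).

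Over the 13 alternatives run in 769-P, PRMT6 was called in all 13, CD83 in 12 and MCUR1 in 9. GUCY1A1, NOSIP, BECN1 and WIPI2 were called in 7, RXRB and NCOA6 in 6 and ATF6 in 5. Leaving out replicate 3 of siNUF2, replicate 2 of siControl or replicate 3 of siControl ended the call of each of these 7 and of MCUR1, and the other 769-P libraries did so for some of them. The highest adjusted p over the alternatives was 0.0259 for PRMT6, 0.0659 for MCUR1, 0.0806 for WIPI2, 0.0871 for NCOA6, 0.0891 for CD83, 0.0975 for BECN1, 0.0998 for GUCY1A1, 0.117 for NOSIP, 0.137 for ATF6 and 0.223 for RXRB.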

How the data were processed

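RNA from 12 libraries of 769-P and ACHN cells was sequenced by the authors on an Illumina NovaSeq after Trizol extraction. Per the submitters' processing notes and the study's methods, reads were cleaned with fastp, aligned to hg38 with HISAT2 2.0.5 and counted with featureCounts 1.5.0-p3. The annotation and strand setting are not given in the sources used here. The deposited values are FPKM per gene and library. Multiplied by exon length in GENCODE release 29 (58039 of 58302 genes found), 96.61 to 97.01% of values under 60 reads came out whole (tolerance 0.02). The recovered reads were used for depth, reads per gene, counting error and the chi-square between libraries, and not for the limma fits. GUCY1A1 and GUCY1B1 were found under the older symbols GUCY1A3 and GUCY1B3.

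FPKM were rescaled by a trimmed mean of log ratios (30% of ratios and 5% of levels trimmed, factors 0.9917 to 1.013), filtered at 0.5 FPKM in at least 3 libraries and tested as log2(FPKM + 0.1) with limma 3.58.1 in R 4.3.3, with Benjamini-Hochberg adjustment over all genes tested and calls at an adjusted p under 0.05. The study's own test was a count model, which needs counts, so FPKM were tested on a log scale. A fold on the log2(FPKM + 0.1) scale understates the change of low genes. Each line was fitted alone (14158 genes in 769-P, 15111 in ACHN), and all 12 libraries together for the interaction and the line difference (16580 genes). Single values were compared by a two-sided exact permutation test. The code was tested on simulated data. Group means and SDs are of the deposited FPKM.

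Libraries with the same replicate number deviated together (in 769-P the r of their deviations was 0.19 to 0.359, in ACHN it was 0.46 to 0.735, and for other numbers it was -0.00858 or lower), so values with the number as a replicate block are given beside the named results whose call they change. No 2 libraries of a group agreed within counting noise (chi-square per gene at least 13.9).

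The genes and lists were chosen with earlier results of these data known. Besides the 5 genes and NUF2, named genes are the 3 most correlated with each, list genes that passed, are the closest paralog or were at 0, and the nearest tested genes on each side. GABARAPL1, GUCY1B1 and the overlapping genes were named after their values were seen. Alternatives were other pseudocounts, filters, scalings, thresholds, the block, a joint fit and leaving out each library. Sequences are from RefSeq, and Python 3.11.15 was used.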

Additional observations from a re-analysis of the deposited data

Results flagged for a closer look

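OLFML2B and NR2F2 stood apart from the other 3 genes in that every same-numbered pair was lower with siNUF2 in 769-P and higher with it in ACHN. The OLFML2B pairs differed by -0.65, -0.80 and -0.97 on the log2 scale in 769-P, the ACHN pairs by 0.69, 0.53 and 0.49, and its response in 769-P less that in ACHN was -1.38. For NR2F2 they were -0.77, -0.63 and -0.77 against 0.27, 0.11 and 0.36, and the difference was -0.97. The ranges of the 2 siRNAs overlapped for OLFML2B in both lines and for NR2F2 in ACHN. Without replicate 3 of ACHN siControl, the unpaired NR2F2 difference in ACHN was -0.01. How many of all genes had pairs of opposite direction was not counted, and ASL and VMP1 of the related lists had them too. Both OLFML2B and NR2F2 were chosen on this difference, so no test of it is given as support. Neither was called for it by limma without the replicate block, where 0% of all genes were called. Both were called with it, where 1.33% were, and nothing is read from these calls.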

How the results depend on the processing

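In 769-P, 1406 genes were called, against 636 with no filter on low values, 3916 with the replicate block, 705 with all 12 libraries in one fit and 174 at an adjusted p under 0.01. Leaving out 1 library gave 359 to 1134, and the count moved by over 1.5 times without any of the 3 siNUF2 libraries (693, 548 and 359) or without siControl replicate 2 or 3 (367 and 435). In ACHN the count of 0 became 1758 with the replicate block and 168 in the joint fit. For the interaction the count of 0 became 2 with a pseudocount of 0.01, 15 with no filter, 221 with the replicate block and 1 without 769-P siNUF2 replicate 2 (range 0 to 1 when leaving out 1 library). The OLFML2B line difference of -0.52 passed without 769-P siNUF2 replicate 2 (-0.63), 769-P siControl replicate 2 (-0.64) or ACHN siNUF2 replicate 2 (-0.63), over a range of -0.64 to -0.33. The cause of these changes was not tested. Over 18 alternatives the interaction ran from -1.74 to -1.09 for OLFML2B, -1.24 to -0.71 for NR2F2, -0.95 to -0.51 for DDAH1, -1.70 to -0.87 for TP53INP2 and 1.12 (pseudocount of 1) to 1.78 for RNF182. The line differences of NR2F2 and RNF182 passed in all 18, with adjusted p of at most 0.00261 and 0.00115. Those of DDAH1 and TP53INP2, which were near 0, changed sign in 5 and 6 of the 18 and passed in none. For list genes between the lines, the replicate block ended the calls of ADGRL2, NR2C2, GABARAP, ATG9A, ATG12 and RELA. With 3 libraries a group, the spread between libraries was mostly larger than the counting error for the 5 genes. An exception was DDAH1 in 769-P with siNUF2, where the SD was 2.71% of the mean beside a counting error of at most 3.25%.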
